A study of Homo sapiens with 2 samples.

Results

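The genes described here are 10 genes of the cadherin switch and of the epithelial-mesenchymal transition (EMT), namely the cadherins CDH1, CDH2, CDH3 and CDH11, vimentin (VIM), and the transcription factors ZEB1, ZEB2, SNAI1, SNAI2 and TWIST1. They were chosen by name and matched to the Entrez gene IDs of the deposited table through the RefSeq gene table. All 10 of them are among the 24663 rows of the table, and 9 have a value, since the row of CDH11 is empty in both libraries. The comparison rests on 2 cultures, each with 1 RNAseq library. The control is labelled WT and the other FZR1 ko, a line that the study made with CRISPR/Cas9 and grew from a single cell, so that it stands for 1 clone. Both are labelled T-47D, a luminal breast cancer cell line, and both received cisplatin at 2 μg/mL, a drug that cross-links DNA. The time of treatment and the vector in the control cells of this experiment are not given in the sources used here. FZR1 encodes CDH1 in the other sense of that name, a co-activator of the ubiquitin ligase APC/C, and has nothing in common with the CDH1 gene of E-cadherin described below. The comparison asks how the FZR1 ko cells differed from the control cells under the drug.

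Cadherins join neighbouring cells through their extracellular repeats and hold the actin cytoskeleton through catenins bound to their tail. In an EMT, epithelial cells lose E-cadherin (CDH1), often gain N-cadherin (CDH2) and take on vimentin filaments, and the zinc finger proteins of the SNAI and ZEB families and the bHLH protein TWIST1 are the transcription factors best known for driving this switch. SNAI and ZEB proteins bind short E-box sequences and repress CDH1, and the miR-200 family of microRNAs holds back ZEB1 and ZEB2. T-47D cells are known for strong E-cadherin and little vimentin.

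Values are FPKM, fragments per unit of transcript length and of library size, so levels of different genes can be compared within a library. The depth is unknown because the file has no counts, but values of 272 short RNA genes give the relative depth. The value that this ratio, FZR1 ko over control, took most often was 0.978 (44 genes lie within 0.5% of it), which corresponds to 1.02 reads of the FZR1 ko library per control read. With 1 library per condition there was no test and no replicate check for any difference below, and a 2-fold difference is only a rule of size. The targeted gene, FZR1, had 12.3 FPKM in control cells and 10.1 FPKM in FZR1 ko cells, and its mRNA level does not check the label, since a frameshift need not lower the mRNA. The cell line label was checked against 15 luminal markers. Of the 14 with a value, 8 had at least 1 FPKM in each library. The keratins KRT8 (829 and 998 FPKM in control and FZR1 ko) and KRT18 (552 and 740 FPKM) and the transcription factor XBP1 (93.4 and 72.6 FPKM) were high. The estrogen and progesterone receptors that define luminal cells were near 0 in both libraries, with ESR1 at 0.04 and 0.13 FPKM and PGR at 0.01 and 0 FPKM. GATA3 (0.31 and 0.15 FPKM) and KRT19 (0.20 and 0.16 FPKM) were near 0 as well. The pioneer factor FOXA1 (5.07 and 4.65 FPKM) and TFF1 (9.80 and 7.52 FPKM), an estrogen-induced secreted peptide, were above 1 FPKM, as was MLPH, of vesicle transport (3.09 and 12.2 FPKM, log2 ratio 1.69 on the scale explained below). Both libraries thus hold keratins of luminal cells without the receptors, which goes against the label. The labelled cell line is therefore given here as a label, and no other name is given to the cells.

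The sequences shown first are promoter windows, which were searched for the E-box that SNAI and ZEB proteins bind. Of the 10 genes, 4 (CDH2, VIM, ZEB1 and ZEB2) were matched in the table of RefSeq promoters (GRCh38.p14) used here, in 11 windows that run from 250 bases before a transcript start to 50 bases after it. The E-box of SNAI and ZEB proteins was searched as CACCTG or CAGGTG, which are each other's reverse complement, so that both strands were covered. It was present in 20.6% of all 35116 promoter windows. Neither of the 2 windows of CDH2 held it, nor did that of VIM or that of ZEB2, and 2 of the 7 windows of ZEB1 did, with 4 E-boxes in all. A start of CDH2 is shown because CDH2 had the largest log2 ratio, in size, among the 4 genes with a window. The ZEB1 window is shown because it held 3 E-boxes, in capitals, a number that 0.635% of all windows reached or passed. It was picked from the 11 windows for that number, so this share does not tell whether ZEB1 promoters are rich in E-boxes. From the start of that ZEB1 transcript the E-boxes begin at -242, -85 and 33 bases. The first sequence is on the minus strand at chr18:28177081-28177380 and the second on the plus strand at chr10:31318966-31319265.
CDH2: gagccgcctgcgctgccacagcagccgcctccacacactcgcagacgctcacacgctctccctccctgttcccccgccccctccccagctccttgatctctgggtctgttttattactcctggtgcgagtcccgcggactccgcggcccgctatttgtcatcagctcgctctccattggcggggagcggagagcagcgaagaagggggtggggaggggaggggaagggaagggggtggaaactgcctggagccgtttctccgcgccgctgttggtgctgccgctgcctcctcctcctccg
ZEB1: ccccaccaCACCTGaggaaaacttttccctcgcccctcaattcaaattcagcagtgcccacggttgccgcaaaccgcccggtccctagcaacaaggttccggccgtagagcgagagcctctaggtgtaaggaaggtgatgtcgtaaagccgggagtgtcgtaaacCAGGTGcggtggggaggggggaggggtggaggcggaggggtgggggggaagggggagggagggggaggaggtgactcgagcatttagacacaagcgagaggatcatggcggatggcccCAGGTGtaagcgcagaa

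The miR-200 family is shown because its seed, bases 2 to 8 in capitals, is what pairs with ZEB1 and ZEB2 mRNA. Its 5 mature sequences from RefSeq fall into 2 seed groups that differ by 1 base. The seed AAUACUG is shared by 3 of them and AACACUG by 2.
hsa-miR-200b-3p: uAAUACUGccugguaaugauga
hsa-miR-200c-3p: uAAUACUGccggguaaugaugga
hsa-miR-429: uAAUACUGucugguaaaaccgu
hsa-miR-200a-3p: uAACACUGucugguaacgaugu
hsa-miR-141-3p: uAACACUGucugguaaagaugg
The hairpin genes of the family and of miR-205, 6 genes in all, have no row in the table, so the microRNAs themselves were not analysed here. MIR200CHG, the host transcript of miR-200c and miR-141, has a row and was listed at 0 in both libraries.

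In both libraries the vimentin level was high, the E-cadherin level was under 1 FPKM, and SNAI1 and CDH2 were the genes of the 10 that differed 2-fold on the log2 scale used here, where 1 FPKM is added to each level (13.5% of all genes kept did so). SNAI1 had 58.2 FPKM in control cells and 6.89 FPKM in FZR1 ko cells, a level 8.45-fold lower in FZR1 ko. CDH2 had 2.97 FPKM in control cells and 15.3 FPKM in FZR1 ko cells, a level 5.15-fold higher in FZR1 ko. The differences went in opposite directions. The levels of VIM, ZEB1, ZEB2 and SNAI2 differed less than 2-fold, and those of TWIST1 were low in both libraries, with 0.18 and 1.16 FPKM. Without the added 1 FPKM the level of TWIST1 was 6.44-fold higher in FZR1 ko, a larger fold than that of CDH2 but from a level near 0. The plot of levels places the 9 genes side by side.

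**Figure D1:**
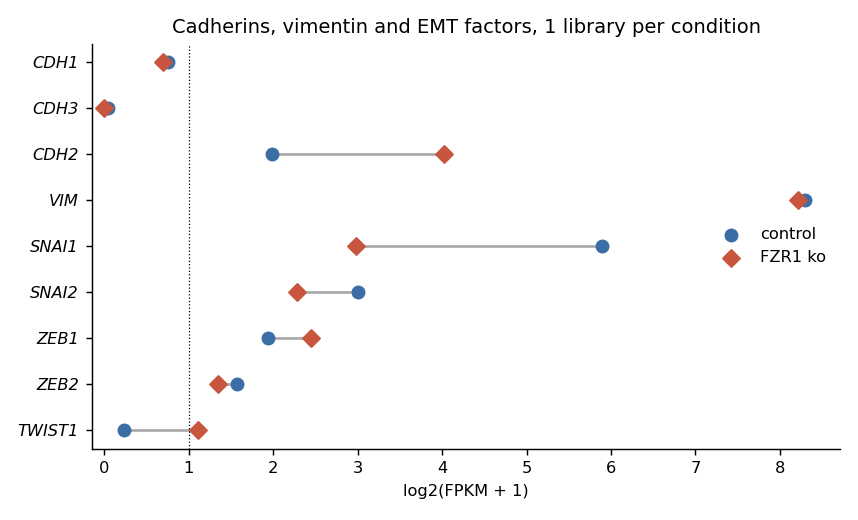
Level of each gene as log2(FPKM + 1) in control (circles) and FZR1 ko (diamonds), 1 library per condition, with a dotted line at 1 FPKM. VIM lies far to the right in both libraries, CDH1 and CDH3 lie left of the line in both, and the long connecting lines are those of SNAI1 (58.2 and 6.89 FPKM) and CDH2 (2.97 and 15.3 FPKM).

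Among the cadherins, E-cadherin (CDH1, gene 999) had 0.69 FPKM in control cells and 0.62 FPKM in FZR1 ko cells, places 13635 and 13611 among the 23033 genes ordered from the highest level. On hg38 its gene spans 68737292 to 68835537 of chromosome 16 (plus strand). P-cadherin (CDH3, gene 1001), a cadherin of basal epithelium, is its neighbour on the same strand, ending 3520 bases before it, and had 0.03 FPKM in the control library and is listed at 0 in the other. Both genes of this pair were thus under 1 FPKM in both libraries, and neither entered the count of genes that differed 2-fold. CDH11, the mesenchymal OB-cadherin on the same chromosome, has no value and is not described further.

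N-cadherin (CDH2, gene 1000) is the cadherin of neurons and of many mesenchymal cells. It lies on the minus strand of chromosome 18, from 27932879 to 28177130, and its canonical transcript has 16 exons. Its level was 2.97 FPKM in control, place 10225, and 15.3 FPKM in FZR1 ko, place 5149. The difference, as the log2 ratio of FZR1 ko over control after 1 FPKM was added to each level, was 2.04, which a pseudocount of 1 FPKM understates for low genes. This log2 ratio was the 53rd highest among the 13554 genes that reached 1 FPKM in either library, and the 27th among the protein-coding genes of these. The ratio of CDH2 to CDH1 levels was 4.30 in control and 24.7 in FZR1 ko. CDH2 took the greater level in both, and the change in the ratio came with CDH2, since CDH1 differed 1.11-fold.

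Other genes of the CDH family, 19 in the list used here, were mostly low, with 14 under 1 FPKM in both libraries and 3 of these (CDH9, CDH20 and CDH22) listed at 0 in both. The highest was CDH24, a type II cadherin, with 18.8 FPKM in control cells and 20.1 FPKM in FZR1 ko cells. CDH13, or T-cadherin, which is held to the membrane by a lipid anchor instead of a tail, had 4.69 FPKM in control cells and 1.68 FPKM in FZR1 ko cells (log2 ratio -1.09). CDH5, the VE-cadherin of endothelium, had 3.64 and 0.33 FPKM (-1.80), and CDH12, a cadherin of the nervous system, had 0.18 and 1.37 FPKM (1.01). Of the 5 kept genes of this list, 2 were at least 2-fold lower and 1 was at least 2-fold higher in FZR1 ko, where 6.72% and 6.78% of all genes kept were. Over the 22 cadherin genes that have values the summed level was 33.6 FPKM in control cells and 41.2 FPKM in FZR1 ko cells. Of these sums CDH24 made up 55.9% in control and 48.7% in FZR1 ko, CDH2 8.84% and 37.1%, CDH13 13.95% and 4.07%, CDH5 10.8% and 0.800%, and CDH1 2.05% and 1.503%. The sum was higher in FZR1 ko by a log2 ratio of 0.29, and N-cadherin passed from a small part of it to the part second to CDH24.

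The EMT factors had another order. Their 5 levels summed to 70.2 FPKM in control cells and 17.9 FPKM in FZR1 ko cells, and SNAI1 made up 82.9% of the first sum and 38.5% of the second. In control SNAI1 was followed by SNAI2 (10.04%), ZEB1 (4.01%), ZEB2 (2.80%) and TWIST1 (0.256%). In FZR1 ko it was followed by ZEB1 (24.9%), SNAI2 (21.6%), ZEB2 (8.60%) and TWIST1 (6.48%). ZEB1 thus stood above SNAI2 in FZR1 ko and below it in control.

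SNAI1 (gene 6615), or Snail, is a zinc finger repressor of CDH1 whose mRNA and protein are both short-lived. It lies on the plus strand of chromosome 20, from 49982980 to 49988886, with 3 exons in its canonical transcript. Its level, 58.2 FPKM in control cells and 6.89 FPKM in FZR1 ko cells, took it from place 1643 to place 7946 of all genes. The log2 ratio was -2.91, the 18th lowest of the 13554 genes and the 7th lowest of the 11548 protein-coding genes among them. SNAI2 (gene 6591), or Slug, its close relative that is known for basal and neural crest cells, had 7.05 FPKM in control cells and 3.86 FPKM in FZR1 ko cells, a log2 ratio of -0.73 that stayed under 2-fold. Both SNAI genes were lower in FZR1 ko, and the ratio of SNAI1 to SNAI2 levels was 8.26 in control and 1.78 in FZR1 ko.

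ZEB1 (gene 6935), a repressor with 2 clusters of zinc fingers, had 2.82 FPKM in control cells and 4.45 FPKM in FZR1 ko cells (log2 ratio 0.51). Its gene runs along the plus strand of chromosome 10 from 31318417 to 31529804, and the window printed above lies at one of its starts. ZEB2 (gene 9839), its paralog, had 1.97 FPKM in control cells and 1.54 FPKM in FZR1 ko cells (-0.23). The pair went opposite ways and neither reached 2-fold, so that the ratio of ZEB1 to ZEB2 levels was 1.43 in control and 2.89 in FZR1 ko. The lncRNA ZEB1-AS1, which is transcribed from the other strand next to ZEB1, had 1.60 and 1.26 FPKM. Whether the counting used strand is not given in the sources used here, so reads of ZEB1 and of its antisense gene cannot be told apart where they overlap.

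TWIST1 (gene 7291), a bHLH factor known for its part in mesoderm and metastasis, had 0.18 FPKM in control cells and 1.16 FPKM in FZR1 ko cells. The log2 ratio was 0.87 with a pseudocount of 1 FPKM and 2.17 with one of 0.1 FPKM, so that its 2-fold difference depends on that choice. Its paralog TWIST2 had 6.74 FPKM in control cells and 8.80 FPKM in FZR1 ko cells and was the higher of the pair in both libraries.

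Vimentin (VIM, gene 7431), the intermediate filament protein of mesenchymal cells and of many cultured lines, lies on the plus strand of chromosome 10, from 17228241 to 17237593. It had 315 FPKM in control cells and 295 FPKM in FZR1 ko cells, places 225 and 218 of all genes, with a log2 ratio of -0.09. Its antisense lncRNA VIM-AS1 had 2.49 and 3.64 FPKM. As for ZEB1-AS1, reads of VIM and of its antisense gene cannot be told apart where they overlap. The ratio of VIM to KRT18, a keratin of simple epithelium, was 0.569 in control and 0.398 in FZR1 ko, and the ratio of VIM to CDH1 was 456 and 475. High vimentin thus stood beside high keratins of simple epithelium and beside little E-cadherin in both libraries.

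Of the 10 genes, 7 passed the filter of 1 FPKM in either library, 2 were under it and 1 had no value. Of the 7, 2 differed at least 2-fold, where 13.5% of all 13554 genes kept did so. The gene that was 2-fold lower in FZR1 ko was SNAI1 (6.72% of all genes kept), and the gene that was 2-fold higher was CDH2 (6.78%). The median log2 ratio of the 7 was -0.09, that of VIM, and that of all genes kept was -0.0048. In all, 3 of the 7 were higher and 4 were lower in FZR1 ko, so the group as a whole showed no shared direction. Of all 13554 genes kept, 6726 were higher and 6812 lower, which is the background for the counts of direction in the lists below.

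**Figure D2:**
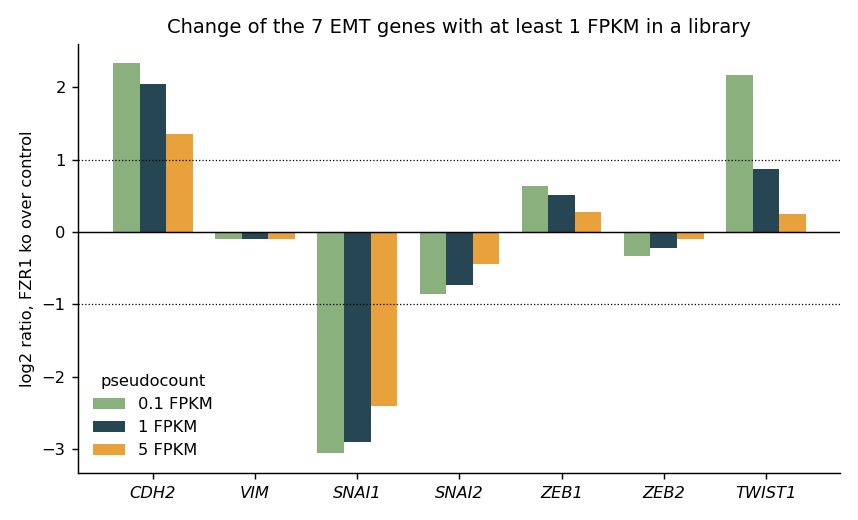
Log2 ratio of FZR1 ko to control for the 7 genes kept, with pseudocounts of 0.1, 1 and 5 FPKM and dotted lines at 2-fold, from 1 library per condition. SNAI1 is below the lower line and CDH2 above the upper line with every pseudocount, while TWIST1 passes the upper line only with 0.1 FPKM (2.17).

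Partners of the cadherin tail were present in both libraries, though not all of them. The catenin genes CTNNA2, CTNNA3 and CTNND2 were listed at 0 in both. In the list of catenins and junction partners, 17 of 21 genes were kept, of which 10 were higher and 7 lower in FZR1 ko, with 2 at least 2-fold higher and 0 at least 2-fold lower. These 2 of 17 are near the 13.5% of all genes kept that differed 2-fold in either direction. Their median log2 ratio was 0.36. The highest by the mean of both libraries were CTNNB1, or β-catenin, with 85.8 FPKM in control cells and 85.5 FPKM in FZR1 ko cells, JUP, or γ-catenin, with 76.7 and 108 FPKM, and the scaffold IQGAP1 with 61.0 and 78.8 FPKM. CTNNA1, the α-catenin that links cadherins to actin, had 44.8 and 77.9 FPKM, and CTNND1, the p120-catenin that keeps cadherins at the membrane, had 27.4 and 36.7 FPKM. The genes past 2-fold were PKP4, a p120-related protein (2.86 and 9.24 FPKM, log2 ratio 1.41), and AJUBA, a LIM protein of junctions that also binds SNAI proteins (22.7 and 61.2 FPKM, 1.39). CTNNB1, JUP, CTNNA1 and CTNND1 each had a higher level than any of the 22 CDH genes with a value, in both libraries.

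Of 47 genes of epithelial junctions and identity, 34 were kept, of which 24 were higher and 10 lower in FZR1 ko, with a median log2 ratio of 0.31. Among all genes kept, 6726 were higher and 6812 lower, and 6.78% were 2-fold higher and 6.72% 2-fold lower. At least 2-fold higher were 4 of them, EPCAM, a surface adhesion protein of epithelia (3.90 and 11.5 FPKM in control and FZR1 ko, log2 ratio 1.35), LLGL2 and CRB3, which set apical and basal polarity (19.3 and 49.4 FPKM, 1.31, and 2.94 and 8.46 FPKM, 1.26), and PKP2, a desmosome protein (2.2 and 6.53 FPKM, 1.23). At least 2-fold lower were also 4, among them LSR, of tricellular junctions (16.7 and 2.94 FPKM, -2.17), MAL2, of apical transport (3.27 and 0.08 FPKM, -1.98), and the surface mucin MUC1 (99.4 and 37.5 FPKM, -1.38). The keratins KRT8, KRT18 and KRT7 were the highest, KRT7 with 532 and 657 FPKM. Further epithelial genes in the list, some of them regulators of the epithelial state, were at unlike levels. The splicing factor ESRP1, the repressor of ZEB1 named OVOL2, the GTPase RAB25 and the lipid enzyme CDS1 were listed at 0 in both, and the transcription factor GRHL2 at 0 in control and 0.01 FPKM in FZR1 ko. ESRP2, the paralog of ESRP1, had 10.3 and 15.7 FPKM. The epithelial ETS factors ELF3 and EHF had 81.8 and 57.5 FPKM and 2.18 and 4.46 FPKM, GRHL1, a relative of GRHL2, had 2.14 and 1.68 FPKM, and the surface protease ST14 had 4.71 and 5.53 FPKM.

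Of 34 mesenchymal genes, 22 were kept, 11 higher and 11 lower in FZR1 ko, with a median log2 ratio of 0.12. Past 2-fold were 3 higher and 1 lower, beside 6.78% and 6.72% of all genes kept. At least 2-fold higher were the collagen gene COL5A1 (4.83 FPKM in control cells and 16.3 FPKM in FZR1 ko cells, log2 ratio 1.57), LOX, which cross-links collagen (0.92 and 3.62 FPKM, 1.27), and the receptor kinase AXL (16.02 and 37.8 FPKM, 1.19). At least 2-fold lower was TAGLN, an actin-binding protein (26.4 and 8.46 FPKM, -1.54). S100A4, a calcium-binding protein, was the highest by the mean of both libraries with 743 and 619 FPKM, followed on that measure by the tropomyosin TPM2 with 319 and 273 FPKM and the integrin ITGA5 with 81.6 and 48.6 FPKM. Like VIM, these differed less than 2-fold. The matrix genes COL1A2, MMP3 and POSTN were listed at 0 in both libraries, and fibronectin (FN1) had 6.33 and 5.88 FPKM.

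Further EMT factors and the bHLH proteins that pair with TWIST1 were followed in a list of 13 genes, of which 12 had a value and 7 were kept. Of these, 5 were higher and 2 lower in FZR1 ko, and 2 were 2-fold higher and 1 was 2-fold lower (6.78% and 6.72% of all genes kept). Their median of 0.88 is the value of ID1. As the list also holds the ID proteins, it does not give a direction for EMT factors alone. TCF3, the E-protein that binds E-boxes with TWIST1, had 22.9 FPKM in control cells and 49.3 FPKM in FZR1 ko cells (log2 ratio 1.08). The ID proteins, which take E-proteins away from DNA, did not go one way. ID3 had 27.0 and 61.4 FPKM (1.16) and ID1, the highest of the list, 74.1 and 137 FPKM (0.88), while ID2 had 28.4 and 4.36 FPKM (-2.45). TCF4 and PRRX1 were listed at 0 in both libraries. Of 14 corepressors and turnover factors of the SNAI, ZEB and TWIST proteins, all 14 were kept, with a median of 0.32. Of them, 12 were higher and 2 lower in FZR1 ko, where 6726 and 6812 of all 13554 genes kept were. In each direction 1 passed 2-fold (6.78% and 6.72% of all genes kept). CTBP2, a corepressor of ZEB proteins, had 4.94 and 13.1 FPKM (1.25), and its paralog CTBP1 28.5 and 47.7 FPKM (0.72). FBXO45, a subunit of a ubiquitin ligase for SNAI1 and other EMT factors, had 18.3 and 8.36 FPKM (-1.04). HDAC1 (79.3 and 92.8 FPKM) and KDM1A (52.8 and 64.2 FPKM), the enzymes that the SNAI proteins bring to promoters, were the highest.

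Of 18 genes for signals that induce EMT, 17 were kept, 9 higher and 8 lower in FZR1 ko, with a median of 0.26, and 3 were 2-fold higher and 2 were 2-fold lower (6.78% and 6.72% of all genes kept). On the TGF-β side, the ligand TGFB2 had 4.54 FPKM in control cells and 1.26 FPKM in FZR1 ko cells (log2 ratio -1.29) and the type I receptor TGFBR1 12.3 and 4.53 FPKM (-1.27), while the co-receptor TGFBR3 had 1.11 and 3.55 FPKM (1.11). TGFB1, the highest of the list, had 55.3 and 68.9 FPKM. Among receptor kinases, EGFR had 7.73 and 22.2 FPKM (1.41) and MET 12.8 and 28.4 FPKM (1.10), and HGF, the ligand of MET, had 0.01 FPKM in the control library and is listed at 0 in the other. WNT5A (34.5 and 28.8 FPKM) and STAT3 (24.96 and 31.8 FPKM) differed less than 2-fold.

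Markers of other cell types were examined because they could carry mesenchymal transcripts. Of 9 fibroblast markers 4 had at least 1 FPKM in control and 5 in FZR1 ko, with sums of 22.4 and 31.0 FPKM. COL1A2 and PDGFRA were listed at 0 in both libraries, THY1 had 0.06 FPKM in each, and LUM was the highest with 12.0 and 17.8 FPKM. Of 8 leukocyte markers 4 and 2 had at least 1 FPKM, with sums of 54.4 and 67.6 FPKM, of which CD68, a lysosomal protein, gave 46.1 and 63.8 FPKM. PTPRC, the common leukocyte antigen, had 0.08 and 0.09 FPKM, and CD3E and MS4A1 were listed at 0 in both. Of 6 endothelial markers, 1 in control and 0 in FZR1 ko had at least 1 FPKM, with sums of 4.19 and 0.73 FPKM. That marker was CDH5 itself, while PECAM1 had 0.30 and 0.32 FPKM and TEK was listed at 0 in both. Of 8 basal markers 2 had at least 1 FPKM in each library, KRT17 (103 and 55.8 FPKM) and EGFR, and TP63 had 0.07 and 0.08 FPKM. The part of other cells in the levels of CDH2, SNAI1 and VIM was not tested, and in bulk RNA fewer cells of a type and less RNA per cell cannot be told apart.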

How the data were processed

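Libraries from total RNA of the cisplatin-treated control and FZR1 ko cultures were sequenced on the BGISEQ-500 platform, with 1 library per condition. According to the methods, the authors aligned reads to the transcriptome with Bowtie2 and quantified them with RSEM on hg38 from UCSC, and they deposited FPKM per Entrez gene ID with 2 decimals. The submitters' processing notes name Trimmomatic 0.36, HISAT2 2.1.0, Bowtie2 2.2.5 and RSEM. The annotation, filters and fragment length are not given in the sources used here. FPKM is normalised by length and library, so a gene's value moves with the annotation and with the few highest genes, and counts cannot be recovered. Of 24663 rows, 23033 have a value. Of these, 22925 (99.5%) matched a symbol in RefSeq for GRCh38.p14, the hg38 build. The table has 0 other columns of sample values.

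For all genes, 1 FPKM was added to both levels and the log2 of FZR1 ko over control was taken, and the 13554 genes that reached 1 FPKM in either library were kept. A gene differed 2-fold where this log2 ratio was 1 or more, or -1 or less. There are no tests or p-values. The computation was tested on simulated data with changes larger than the threshold in well-expressed genes and little noise. That checks the code and not the low or unreplicated values here. Alternatives were pseudocounts of 0.1 and 5 FPKM, no filter, at least 1 FPKM in both libraries, centring on the median, rescaling FZR1 ko to the control sum and a 4-fold threshold. Protein-coding genes only was added later. Strand and exons are those of the canonical transcripts of GENCODE 44, and gene coordinates are those of RefSeq.

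The 10 genes and the lists were chosen with earlier results of these data known. The genes named are the 10, FZR1, any marker of a cell type, and in each list the genes past 2-fold and the 3 with the highest mean FPKM. All others, such as CTNNA1, CTNND1, CTNNA2, CTNNA3, CTNND2, ESRP1, ESRP2, ELF3, EHF, GRHL1, ST14, OVOL2, RAB25, CDS1, GRHL2, TWIST2, FN1, HGF, CDH9, CDH20, CDH22, TCF4, PRRX1, COL1A2, MMP3, POSTN, MIR200CHG, VIM-AS1 and ZEB1-AS1, were named after their values were seen. Values of 2 genes of the lists are not reported here. Lists share some genes, for example 6 between fibroblast markers and mesenchymal genes and 5 between luminal markers and epithelial genes. The scripts ran under Python 3.11.15 with matplotlib 3.10.9, pandas 2.3.3 and numpy 2.4.6.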

Additional observations from a re-analysis of the deposited data

How the results depend on the processing

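The filters and the 4-fold threshold leave the log2 ratio of a gene as it is, so that it could move only with the pseudocount, the centring and the rescaling. Under these the 7 genes kept had the same sign and, with 1 exception, the same side of 2-fold. The exception was TWIST1, whose log2 ratio was 2.17 in place of 0.87 with a pseudocount of 0.1 FPKM. SNAI1 ranged from -3.06 to -2.41 and CDH2 from 1.35 to 2.33. CDH1 and CDH3, which the filter leaves out, had log2 ratios of -0.06 and -0.04. The number of genes differing 2-fold over the whole table, 1830 (911 lower and 919 higher in FZR1 ko), was 2818 with a pseudocount of 0.1 FPKM (1460 higher), 453 with one of 5 FPKM (270 lower and 183 higher) and 150 at a 4-fold threshold (89 lower and 61 higher), by the construction of these settings. Among 11548 protein-coding genes it was 1394. Without the filter, the medians of the further EMT factors, basal, leukocyte and endothelial lists were 0, -0.063, -0.021 and -0.048, as genes near 0 entered, in place of 0.88, 0.27, -0.69 and -1.80. The same setting gave 0 for the other cadherins (-0.47 with the filter), fibroblast (0.41) and mesenchymal (0.12) lists, 0.10 for the catenins and partners (0.36), 0.058 for the epithelial (0.31), 0.060 for the luminal (0.29) and 0.12 for the inducing signals list (0.26), while that of the corepressors stayed at 0.32. The endothelial value rests on CDH5 and was -3.12 and -0.70 with pseudocounts of 0.1 and 5 FPKM. With at least 1 FPKM in both libraries the mesenchymal median was -0.0084 in place of 0.12, with fewer genes. No paired analysis was possible because control and FZR1 ko have 1 library each, and for the same reason no replicate was left out. The unknown depth limits the low values most, those of CDH1, CDH3 and TWIST1.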
